A study of Homo sapiens with 9 samples.

Results

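The SR and hnRNP genes were followed in KYSE180 cells, an established human line labelled as squamous carcinoma of the esophagus and, in the series title, as deficient in KDM6A. They were taken as every protein-coding gene of the count table with a symbol that starts with SRSF and a number, or with HNRNP. The rule found 36 of 57905 genes, of which 11 were SRSF and 25 were HNRNP genes, and used no measured value. The low-count filter was passed by 33 of them. SRSF12, HNRNPCL1 and HNRNPCL4 did not pass: HNRNPCL4 had no count in any library, SRSF12 had counts in shluc replicate 3 alone, and HNRNPCL1 stayed at or below 0.121 CPM (counts scaled to a common library size). HNRNPCL2, HNRNPCL3 and SRSF8 were not analysed here.

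All cells had been given 6 Gy of ionizing radiation, so the radiation is common to every group and no unirradiated group was compared. The 3 groups of 3 libraries carried a control hairpin to luciferase (shluc) or 1 of 2 hairpins that target EZH2, the catalytic subunit of Polycomb repressive complex 2 (shEZH2#1 and shEZH2#3). Groups follow the titles, which name hairpins, although the genotype field of the hairpin libraries reads knockout. Whether replicates came from separate cultures is not stated, so the spread behind each p-value may be technical only. A single cell line was used.

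SR proteins carry RNA recognition motifs and a tail rich in arginine and serine. They bind exonic enhancers and help the spliceosome to recognise splice sites, and kinases of the SRPK and CLK families phosphorylate the tail and set where the proteins reside. The hnRNP proteins coat nascent transcripts and often oppose SR proteins at exons, besides acting in RNA export, stability and translation. Many genes of both families limit their own output by splicing in an exon that sends the transcript to nonsense-mediated decay.

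Upstream sequences of 3 members are given because these members stood for the different patterns described below: HNRNPUL2 and HNRNPAB were lower with both hairpins once GC content was taken into account, and HNRNPA0 was then higher with shEZH2#3. Each runs 5′ to 3′ on the gene's strand, over the 300 bases around the RefSeq start (GRCh38.p14). The capitals mark GC boxes (GGGCGG) and CCAAT boxes on either strand; the windows lie at chr11:62727408-62727707 (minus strand), chr5:178204283-178204582 (plus strand) and chr5:137754314-137754613 (minus strand).
HNRNPUL2: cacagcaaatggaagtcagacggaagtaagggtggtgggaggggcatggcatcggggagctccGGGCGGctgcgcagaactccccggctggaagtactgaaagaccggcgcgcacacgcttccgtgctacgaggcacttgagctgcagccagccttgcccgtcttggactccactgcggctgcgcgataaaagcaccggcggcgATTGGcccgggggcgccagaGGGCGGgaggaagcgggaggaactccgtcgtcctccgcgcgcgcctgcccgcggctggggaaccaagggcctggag
HNRNPAB: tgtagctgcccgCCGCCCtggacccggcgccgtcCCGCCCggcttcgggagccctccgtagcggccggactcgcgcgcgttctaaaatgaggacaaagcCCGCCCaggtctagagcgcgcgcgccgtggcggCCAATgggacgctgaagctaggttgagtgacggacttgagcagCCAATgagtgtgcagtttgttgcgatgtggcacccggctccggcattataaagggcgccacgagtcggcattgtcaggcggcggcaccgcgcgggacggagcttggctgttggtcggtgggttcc
HNRNPA0: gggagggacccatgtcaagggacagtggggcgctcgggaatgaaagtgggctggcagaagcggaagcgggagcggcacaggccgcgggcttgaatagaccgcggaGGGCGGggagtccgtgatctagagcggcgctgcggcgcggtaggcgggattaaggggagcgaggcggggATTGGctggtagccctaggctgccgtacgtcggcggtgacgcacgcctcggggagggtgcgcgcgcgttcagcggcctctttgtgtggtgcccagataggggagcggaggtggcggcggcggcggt
The table of start sites held 43 such windows for 30 of the 33 tested members. Their median GC content was 65.0%, against 58.7% over all 35116 windows of the table, and their median number of CpG dinucleotides was 29, against 14. A GC box stood in 28 of the 43 windows (65.1%, against 45.0% of all windows) and CCAAT in 21 (48.8%, against 34.6%). An ETS core (CCGGAAG) stood in 5 windows (11.6%, against 10.3%) and TATAAA in 6 (14.0%, against 11.5%). A cAMP response element (TGACGTCA) was found in 0 of the 43 windows and in 1.85% of all. Both strands were searched, and none of these motifs contains another. These matches describe letters only; binding was not measured.

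Library totals were 14958011 to 21152006 counts. EZH2 was at 18.4, 20.1 and 19.5 CPM with the control hairpin, 11.6, 11.4 and 7.28 with shEZH2#1, and 9.67, 11 and 9.11 with shEZH2#3, so all 6 hairpin libraries lay below the controls. Its log2 fold change was -0.94 ± 0.18 (SE, adjusted p = 0.00163) with shEZH2#1 and -0.96 ± 0.18 (adjusted p = 0.000433) with shEZH2#3. Of 10 squamous markers, KRT17, SFN, DSP and PERP were expressed, at 63.3 to 1270 CPM on average, and the sum of the 10 was 1480 to 1950 CPM with shluc, 2190 to 2560 with shEZH2#1 and 1860 to 2090 with shEZH2#3. TP63, KRT5, KRT14, KRT6A, SOX2 and DSG3 each averaged under 1 CPM, so much of the defining squamous set was nearly absent. Of 6 fibroblast markers, 4 averaged at least 1 CPM and COL1A2 had no count; the summed level was 59.5 to 68.3 CPM in control libraries, 53.9 to 62.4 with shEZH2#1 and 79.5 to 118 with shEZH2#3. Of 5 leukocyte markers, PTPRC and CD3E had no count, CD14 and LYZ averaged 0.183 and 0.0306 CPM, and CD68 averaged 19.3 CPM. The sum of the 5 was 16.6 to 20.9 CPM with shluc, 14.1 to 17.4 with shEZH2#1 and 19.8 to 25.3 with shEZH2#3. Of 2 endothelial markers found, CDH5 averaged 18.3 CPM and VWF 0.674. Their sum was 13.8 to 19.8, 7.97 to 8.29 and 28.4 to 32.7 CPM in the same order. Whether these differences bear on the SR and hnRNP genes was not tested.

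SR and hnRNP transcripts took a smaller share of the counts in every hairpin library than in any control library. The 36 genes held 0.56, 0.707 and 0.574% of the counts of the control libraries, 0.434, 0.404 and 0.357% of those of shEZH2#1, and 0.328, 0.346 and 0.353% of those of shEZH2#3. Other shares of the libraries differed as well. Genes encoded by mitochondrial DNA took 3.19 to 4.12% with shluc, 1.47 to 1.73% with shEZH2#1 and 5.22 to 7.31% with shEZH2#3, and a pair of abundant genes without a symbol took 6.96 to 9.28%, 15.81 to 22.58% and 5.97 to 11.59%. A share of a bulk library cannot tell less RNA per cell from fewer cells that hold it. All CPM values below are scaled with TMM factors, which compare libraries over most genes. These factors were 1.114 to 1.326 for shluc, 0.91 to 1.052 for shEZH2#1 and 0.827 to 0.889 for shEZH2#3. The share of a typical gene was thus lower in every hairpin library as well, so part of the fall is not particular to the SR and hnRNP genes. The scaling did not remove all of it. On the log2 scale the median tested member then changed by -0.29 (shEZH2#1) and -0.45 (shEZH2#3), and the median of all genes tested by -0.07 and -0.01. With the correction for GC content and length described below, the member medians were -0.08 and -0.08.

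**Figure D1:**
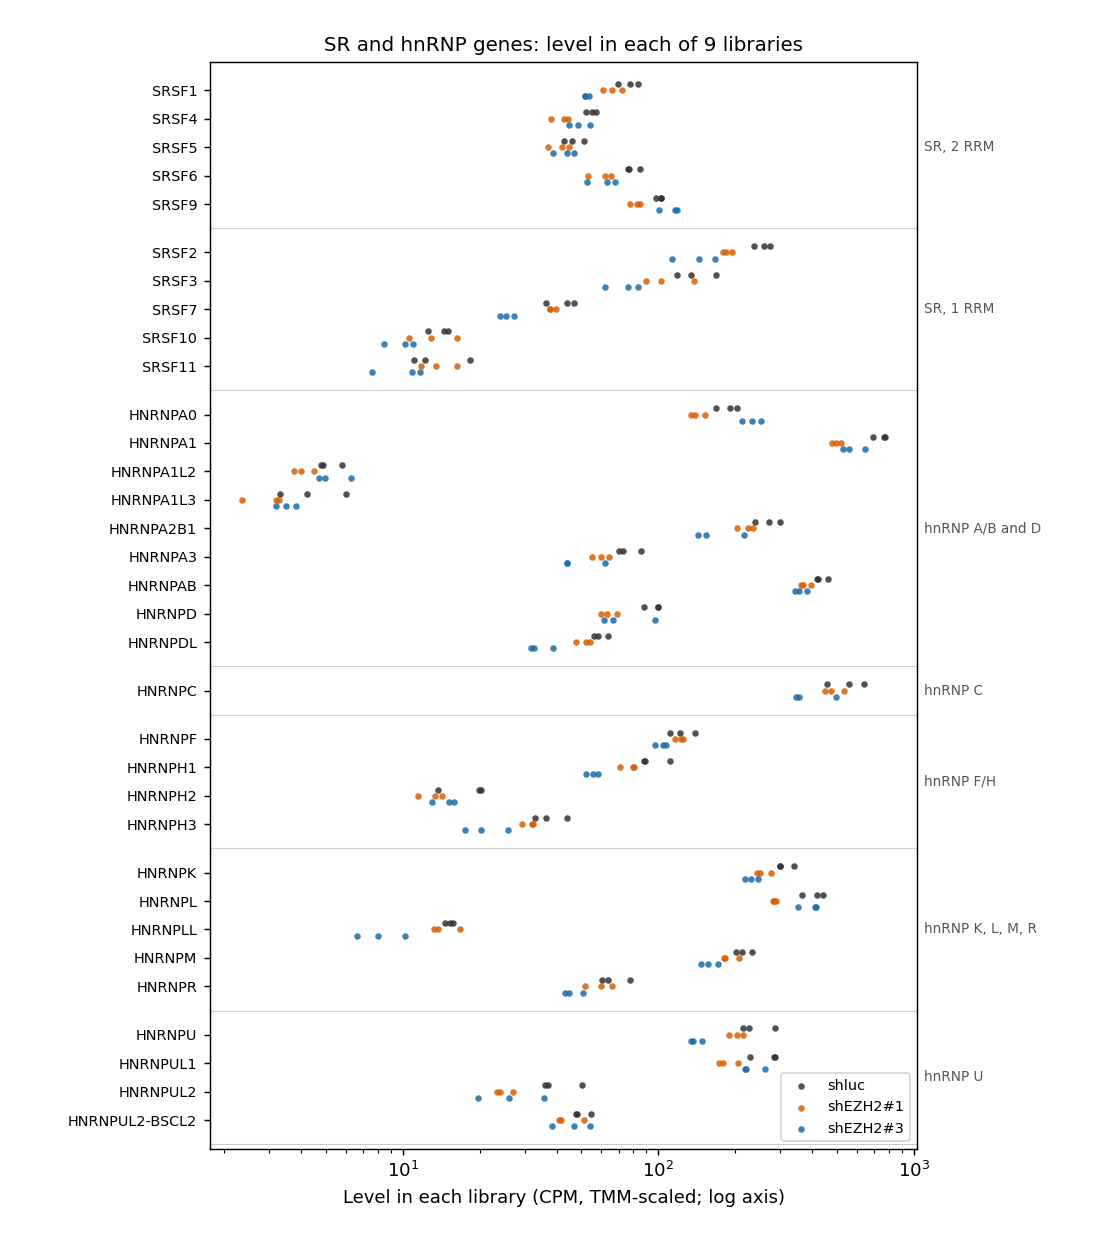
Level of each of the 33 tested SR and hnRNP genes in the 9 libraries, in TMM-scaled CPM on a log axis; each point is 1 library, coloured by group, and rows are ordered by protein type. CPM is not divided by length, so positions are to be compared within a row. In SRSF2 the control points (238 to 275 CPM) lie above all shEZH2#1 points (179 to 195) and all shEZH2#3 points (113 to 167), while in HNRNPA0 the shEZH2#3 points (213 to 252) lie above the controls (168 to 204).

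Levels of different genes were compared per length, as TPM, which scales counts per kilobase to a common total over protein-coding genes. Divided by the longest protein-coding transcript, the highest in shluc were HNRNPAB (662 ± 83.1 TPM, SD, n = 3), HNRNPA1 (495 ± 79.7) and HNRNPL (456 ± 87.6). The last 2 of these did not differ beyond their spread. HNRNPC (332 ± 14.9), HNRNPK (294 ± 62.3) and the SR gene SRSF2 (246 ± 50.5) followed. SRSF2 was the highest SR gene, next to SRSF9 at 231 ± 24, and these 2 also lay within each other's spread. The lowest tested members were HNRNPLL (10 ± 1.75 TPM) and HNRNPA1L3 (8.04 ± 3.5). The order at the top depended on which transcript set the length. With the median length of protein-coding transcripts HNRNPA1 led with 1380 TPM, followed by HNRNPC with 643, HNRNPAB with 400 and HNRNPL with 357.

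With shEZH2#1, 6 of the 33 tested members were lower than in shluc and 0 were higher. Lower were HNRNPA1, HNRNPD, HNRNPL, HNRNPUL1, HNRNPUL2 and SRSF2. Of all 13252 genes tested, 7.89% were called lower with this hairpin and 11.2% higher. The median log2 fold change of the members was -0.29, against -0.07 over all genes tested, and 32 of 33 values were below 0. In 20 members all 3 shEZH2#1 libraries lay below all 3 shluc libraries, which held for 18.9% of all genes. The number called was sensitive to single libraries: it was 1 when shEZH2#1 replicate 3 was left out, 2 for shEZH2#1 replicate 2, and 3 for either shEZH2#1 replicate 1 or shluc replicate 2. Calls over all genes fell in these fits too. The main fit had 1045 genes lower, and these fits had 391, 431, 799 and 646 in the same order.

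With shEZH2#3, 18 of 33 members were lower and 0 were higher, where 19.8% of all genes were called lower and 24.4% higher. The median was -0.45, against -0.01 over all genes, and 30 of 33 values were below 0. All 3 shEZH2#3 libraries lay below all shluc libraries in 20 members (26.0% of all genes). With upper quartile scaling, which moved the median of all genes to -0.18, 25 members were lower and 0 higher, and the split of all genes turned round, from 3237 higher and 2624 lower to 2421 higher and 3720 lower. Leaving out any 1 library left 15 to 19 members called. The 18 lower members were 6 of 10 SRSF and 12 of 23 HNRNP genes. SRSF2 and HNRNPUL2 were lower with both hairpins, a pattern held by 3.26% of all genes. The 2 comparisons share the 3 control libraries. In 12 members all 6 hairpin libraries lay below all controls (9.54% of all genes). For the mean of both hairpins 19 members were lower and 0 higher, with 16.6% of all genes lower and 19.6% higher (2204 and 2600, against 2983 and 2284 with upper quartile scaling). Without shluc replicate 2, 11 members were lower, and over all genes 1063 were lower and 1586 higher. Changes went with GC content over all genes, and 13 of the 18 calls with shEZH2#3 were lost when GC content and length were corrected for.

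**Figure D2:**
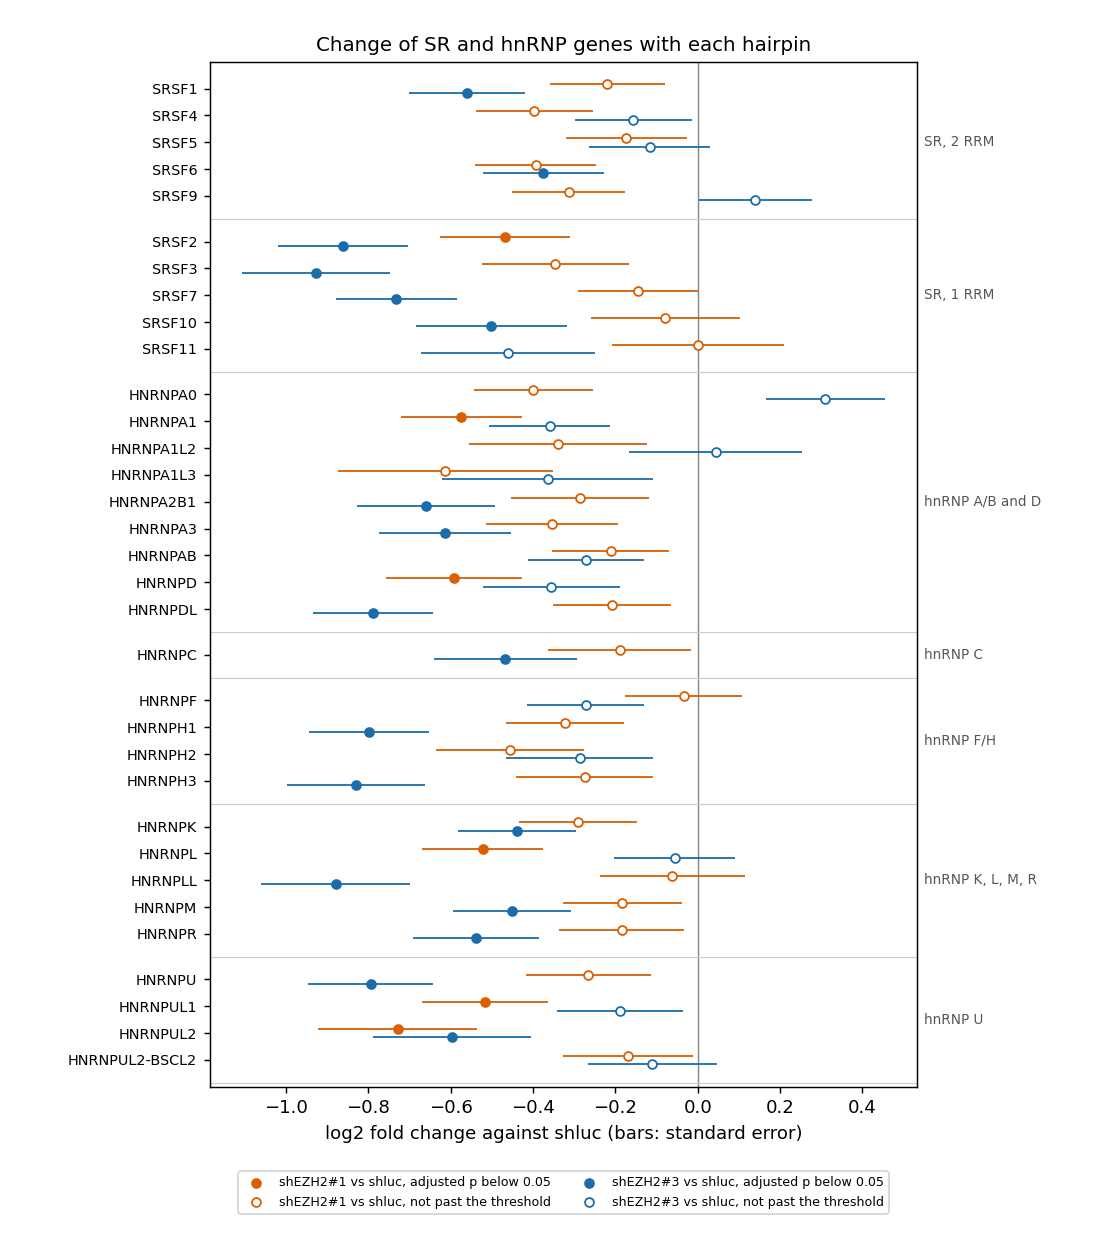
Change of the 33 tested members against shluc with shEZH2#1 (orange) and shEZH2#3 (blue), as log2 fold changes with standard errors, without correction for GC content. Filled points passed an adjusted p of 0.05 and open points did not; all 6 filled orange and all 18 filled blue points lie left of 0, and HNRNPA0 with shEZH2#3 is the point farthest to the right.

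Among SR proteins with a single RNA recognition motif, shEZH2#3 lowered 4 of the 5 tested and shEZH2#1 lowered 1. For this and the protein types below, the shares over all genes were 19.8% lower with shEZH2#3 and 7.89% with shEZH2#1. The median GC content of these 5 was 39.3%, and 38.8% of all genes below 40% GC were called lower with shEZH2#3. After correction for GC content and length, 1 of the 5 was lower with shEZH2#3 and 0 with shEZH2#1. SRSF2 (ENSG00000161547, chromosome 17, 76734115 to 76737374, GENCODE 29 on GRCh38, as for the positions below), which binds exonic enhancers and stays in the nucleus, stood at 259, 275 and 238 CPM with the control hairpin, 195, 185 and 179 with shEZH2#1, and 113, 144 and 167 with shEZH2#3. The 3 groups did not overlap, with shEZH2#3 lowest. Its log2 fold change was -0.47 ± 0.16 (adjusted p = 0.0419) with shEZH2#1 and -0.86 ± 0.16 (adjusted p = 0.00034) with shEZH2#3. The shEZH2#3 call held in 9 of 9 fits that left out a library, the shEZH2#1 call in 3 of 9; it was lost without shluc replicate 1 or 2 or shEZH2#1 replicate 1, 2 or 3 or shEZH2#3 replicate 2 (adjusted p = 0.0537 to 0.159). With RLE scaling (adjusted p = 0.0644) and with a replicate block (adjusted p = 0.0731) it was lost as well. An antisense neighbour, MFSD11, overlaps 36.7% of the exonic bases of SRSF2, and since the strand setting of the counting is not given, reads of the 2 genes may be mixed.

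SRSF3, the smallest SR protein and a partner of mRNA export, had 119, 135 and 168 CPM with the control hairpin, 138, 103 and 89.5 with shEZH2#1, and 62.2, 76.4 and 83.1 with shEZH2#3. The shEZH2#3 libraries lay below all others, while shEZH2#1 replicate 1 lay among the controls. The change was -0.93 ± 0.18 (adjusted p = 0.000558) with shEZH2#3 and -0.35 ± 0.18 (adjusted p = 0.186) with shEZH2#1. SRSF7, a close relative of SRSF3 with a zinc knuckle, had 36.4, 44.1 and 46.7 CPM with the control hairpin, 39.8, 37.6 and 37.6 with shEZH2#1, and 25.3, 27.2 and 24.1 with shEZH2#3. Here too shEZH2#3 stood apart, at -0.73 ± 0.15 (adjusted p = 0.000735), and shEZH2#1 had -0.15 ± 0.15 (adjusted p = 0.516). SRSF10, which acts mainly as a splicing repressor when dephosphorylated, was less abundant at 14.5, 15 and 12.6 CPM with the control hairpin, 16.3, 12.9 and 10.6 with shEZH2#1, and 10.2, 8.42 and 11 with shEZH2#3. It passed with shEZH2#3 at -0.50 ± 0.18 (adjusted p = 0.0324), a call lost without shluc replicate 1 or 2 or shEZH2#3 replicate 2 (adjusted p = 0.0775 to 0.138). SRSF11 had -0.46 ± 0.21 (adjusted p = 0.0813) with shEZH2#3 and 0.00 ± 0.21 (adjusted p = 0.999) with shEZH2#1.

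Of the 5 SR proteins with a pair of recognition motifs, SRSF1 and SRSF6 fell with shEZH2#3 and none passed with shEZH2#1. SRSF1, the founding SR protein and an oncogene in several cancers, had 69.9, 83.7 and 77.9 CPM with the control hairpin, 72.2, 65.8 and 60.9 with shEZH2#1, and 51.7, 51.7 and 53.6 with shEZH2#3. The shEZH2#3 libraries were tightly grouped below all others, and the change was -0.56 ± 0.14 (adjusted p = 0.00385). An unnamed protein-coding gene on the same strand overlaps 56.6% of the exonic bases of SRSF1, and another gene on the opposite strand 13.2%, so counts of SRSF1 are uncertain. SRSF6 had 77.2, 76 and 84.7 CPM with the control hairpin, 65.6, 62.1 and 53.3 with shEZH2#1, and 52.7, 67.6 and 63 with shEZH2#3, so both hairpins lay below the controls, with -0.38 ± 0.15 (adjusted p = 0.0445) for shEZH2#3 and -0.39 ± 0.15 (adjusted p = 0.0671) for shEZH2#1. The SRSF6 call held in 3 of 9 fits and was lost without shluc replicate 1 or 3 or shEZH2#1 replicate 2 or 3 or shEZH2#3 replicate 1 or 3 (adjusted p = 0.0556 to 0.176), with RLE scaling (adjusted p = 0.0594) and with a replicate block (adjusted p = 0.076). SRSF4, one of the longer SR proteins, had 57.2, 55.1 and 52.1 CPM with the control hairpin, 44.2, 42.7 and 38 with shEZH2#1, and 44.8, 53.9 and 48.7 with shEZH2#3. All shEZH2#1 libraries and 2 of the 3 shEZH2#3 libraries lay below the controls, and neither change passed: -0.40 ± 0.14 (adjusted p = 0.0566) and -0.16 ± 0.14 (adjusted p = 0.373). SRSF5 had -0.17 ± 0.15 and -0.12 ± 0.15, smaller than or near its errors.

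SRSF9 was the only tested SR gene called lower with shEZH2#1 than with shEZH2#3 in the uncorrected fit. It stood at 103, 97.8 and 103 CPM with the control hairpin, 82.5, 84.6 and 77.8 with shEZH2#1, and 116, 101 and 119 with shEZH2#3, below the controls in all shEZH2#1 libraries and within or above them with shEZH2#3. Neither change against shluc passed (-0.31 ± 0.14 (adjusted p = 0.117) and 0.14 ± 0.14 (adjusted p = 0.414)), but the hairpins differed from each other, as given below. GATC on the opposite strand overlaps 46.2% of its exonic bases, so this gene is uncertain.

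Of the 9 hnRNP A/B and D genes, 2 fell with shEZH2#1 and 3 with shEZH2#3. HNRNPA1, a shuttling repressor that binds exonic and intronic silencers, had 693, 764 and 773 CPM with the control hairpin, 481, 519 and 497 with shEZH2#1, and 648, 559 and 531 with shEZH2#3. All 6 hairpin libraries lay below the controls. The change passed with shEZH2#1, at -0.57 ± 0.15 (adjusted p = 0.0102), and narrowly missed with shEZH2#3, at -0.36 ± 0.15 (adjusted p = 0.0528). The call was lost without shEZH2#1 replicate 3 (adjusted p = 0.0563). Its 74 annotated pseudogenes took 0.9 to 1.56% of the counts of gene and pseudogenes together; how multiply mapped reads were shared out is not given. HNRNPA2B1, its relative and a reader of RNA marks, had 239, 299 and 272 CPM with the control hairpin, 225, 236 and 204 with shEZH2#1, and 216, 154 and 143 with shEZH2#3, and fell with shEZH2#3, at -0.66 ± 0.17 (adjusted p = 0.00412). HNRNPA3 had 70.3, 85.9 and 73 CPM with the control hairpin, 55.2, 59.9 and 64.4 with shEZH2#1, and 62.1, 43.9 and 43.9 with shEZH2#3 and changed by -0.61 ± 0.16 (adjusted p = 0.00514) with shEZH2#3. In both genes shEZH2#3 replicate 1 was the highest library of its group.

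HNRNPD, known as AUF1 for its binding to AU-rich elements, had 88, 100 and 99.8 CPM with the control hairpin, 59.6, 68.7 and 62.8 with shEZH2#1, and 97.2, 66.5 and 61.3 with shEZH2#3. All shEZH2#1 libraries were low, while shEZH2#3 replicate 1 lay among the controls and the other 2 did not. The change was -0.59 ± 0.17 (adjusted p = 0.0176) with shEZH2#1, lost without shluc replicate 2 or shEZH2#1 replicate 1 or 3 (adjusted p = 0.0516 to 0.0782), and -0.36 ± 0.17 (adjusted p = 0.0861) with shEZH2#3. Its neighbour and paralog HNRNPDL had 56.2, 63.9 and 57.9 CPM with the control hairpin, 52.4, 54.2 and 47.5 with shEZH2#1, and 38.7, 32.6 and 31.7 with shEZH2#3, with -0.79 ± 0.14 (adjusted p = 0.000355) for shEZH2#3, which passed, and -0.21 ± 0.14 (adjusted p = 0.328) for shEZH2#1. HNRNPAB (ENSG00000197451, chromosome 5, 178204507 to 178211163), an mRNA-binding relative of the A and B proteins, had 463, 420 and 421 CPM with the control hairpin, 362, 369 and 396 with shEZH2#1, and 356, 383 and 342 with shEZH2#3. All 6 hairpin libraries lay below the controls, but the differences were small and did not pass (-0.21 ± 0.14 (adjusted p = 0.313) and -0.27 ± 0.14 (adjusted p = 0.124)). The HNRNPA1-like members HNRNPA1L2 and HNRNPA1L3 were scarce and passed with neither hairpin. HNRNPA1L2 had 4.79, 5.78 and 4.89 CPM with the control hairpin, 4.48, 3.99 and 3.75 with shEZH2#1, and 6.29, 4.68 and 4.97 with shEZH2#3, and HNRNPA1L3 lay at 2.35 to 5.98 CPM; both resemble HNRNPA1 in sequence, so their counts are uncertain.

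HNRNPA0 lay on opposite sides of the controls with the 2 hairpins. The gene encodes an AU-rich element binder that is phosphorylated downstream of p38 signalling. It (ENSG00000177733, chromosome 5, 137745651 to 137754376) had 204, 191 and 168 CPM with the control hairpin, 135, 140 and 152 with shEZH2#1, and 233, 252 and 213 with shEZH2#3. All shEZH2#1 libraries lay below the controls and all shEZH2#3 libraries above them, the single member with that order for shEZH2#3. Neither change against shluc passed without correction: -0.40 ± 0.14 (adjusted p = 0.06) and 0.31 ± 0.14 (adjusted p = 0.0879).

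HNRNPC, which binds uridine tracts and measures transcript length, had 557, 460 and 641 CPM with the control hairpin, 532, 473 and 449 with shEZH2#1, and 357, 345 and 497 with shEZH2#3. The groups overlapped, because shEZH2#3 replicate 3 was among the controls. The change with shEZH2#3, -0.47 ± 0.17 (adjusted p = 0.0349), was lost without shluc replicate 1 or 3 or shEZH2#1 replicate 2 or shEZH2#3 replicate 1 or 2 (adjusted p = 0.052 to 0.146). It was -0.19 ± 0.17 (adjusted p = 0.473) with shEZH2#1. Of the F/H genes, which bind runs of guanines, HNRNPH1 and HNRNPH3 fell with shEZH2#3. HNRNPH1 (ENSG00000169045, chromosome 5, 179614178 to 179634784) had 88.3, 111 and 88.9 CPM with the control hairpin, 80.1, 79.8 and 70.6 with shEZH2#1, and 58, 52.3 and 55.5 with shEZH2#3, with no overlap between any groups, and changes of -0.80 ± 0.14 (adjusted p = 0.000321) and -0.32 ± 0.14 (adjusted p = 0.124). HNRNPH3 had 33, 44 and 36.4 CPM with the control hairpin, 32, 32.4 and 29.3 with shEZH2#1, and 25.9, 17.6 and 20.2 with shEZH2#3 and changes of -0.83 ± 0.17 (adjusted p = 0.000748) and -0.27 ± 0.17 (adjusted p = 0.259). HNRNPF had -0.27 ± 0.14 (adjusted p = 0.123) with shEZH2#3 and HNRNPH2 had -0.46 ± 0.18 (adjusted p = 0.0801) with shEZH2#1, neither past the threshold. The libraries of HNRNPH2 overlapped between all groups, at 13.7, 20.2 and 19.9 CPM with the control hairpin, 14.3, 11.5 and 13.4 with shEZH2#1, and 15.9, 13 and 15.2 with shEZH2#3.

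Of HNRNPK, HNRNPL, HNRNPLL, HNRNPM and HNRNPR, all except HNRNPL fell with shEZH2#3, and HNRNPL fell with shEZH2#1. HNRNPL (ENSG00000104824, chromosome 19, 38836388 to 38852347), which binds CA repeats, had 443, 420 and 366 CPM with the control hairpin, 281, 285 and 290 with shEZH2#1, and 354, 416 and 412 with shEZH2#3. The shEZH2#1 libraries were tightly grouped below all others, and shEZH2#3 lay mostly among the controls. Its changes were -0.52 ± 0.15 (adjusted p = 0.0177) and -0.06 ± 0.15 (adjusted p = 0.774), and the first was lost without shluc replicate 1 or shEZH2#1 replicate 2 or 3 (adjusted p = 0.0665 to 0.0796). HNRNPLL, a paralog of HNRNPL known for CD45 splicing in lymphocytes, had 15.3, 15.8 and 14.6 CPM with the control hairpin, 16.8, 13.8 and 13.2 with shEZH2#1, and 6.64, 7.98 and 10.2 with shEZH2#3. Here shEZH2#3 was the low group, with -0.88 ± 0.18 (adjusted p = 0.000871) and -0.06 ± 0.18 (adjusted p = 0.844) with shEZH2#1. HNRNPK, a binder of cytidine tracts, had 301, 340 and 301 CPM with the control hairpin, 276, 251 and 243 with shEZH2#1, and 218, 230 and 247 with shEZH2#3 and fell with shEZH2#3, at -0.44 ± 0.14 (adjusted p = 0.0188), a call lost without shEZH2#3 replicate 1 or 2 (adjusted p = 0.06 to 0.0605). HNRNPM, known for splicing in epithelial-mesenchymal transition, had 202, 234 and 213 CPM with the control hairpin, 181, 208 and 183 with shEZH2#1, and 147, 171 and 157 with shEZH2#3. It changed by -0.45 ± 0.14 (adjusted p = 0.0164) with shEZH2#3, a call lost without shEZH2#3 replicate 1 or 3 (adjusted p = 0.051 to 0.0562). HNRNPR had 60.3, 77.8 and 63.6 CPM with the control hairpin, 65.9, 59.8 and 51.7 with shEZH2#1, and 50.8, 43.1 and 44.9 with shEZH2#3 and changed by -0.54 ± 0.15 (adjusted p = 0.00846).

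In the U group, HNRNPUL1 and HNRNPUL2 fell with shEZH2#1, and HNRNPU and HNRNPUL2 fell with shEZH2#3. HNRNPU, a scaffold attachment protein that binds chromatin and RNA, had 214, 288 and 226 CPM with the control hairpin, 203, 214 and 189 with shEZH2#1, and 137, 148 and 135 with shEZH2#3. All 6 hairpin libraries lay below the controls, shEZH2#1 replicate 2 by less than the printed digits show. The changes were -0.79 ± 0.15 (adjusted p = 0.000474) with shEZH2#3 and -0.27 ± 0.15 (adjusted p = 0.229) with shEZH2#1. HNRNPUL1 (ENSG00000105323, chromosome 19, 41262496 to 41307598), which takes part in the DNA damage response, had 285, 288 and 228 CPM with the control hairpin, 173, 206 and 180 with shEZH2#1, and 221, 262 and 219 with shEZH2#3, with -0.52 ± 0.15 (adjusted p = 0.0235) and -0.19 ± 0.15 (adjusted p = 0.317). The first was lost without shluc replicate 1 or shEZH2#1 replicate 1, 2 or 3 (adjusted p = 0.0509 to 0.107). HNRNPUL2 (ENSG00000214753, chromosome 11, 62712630 to 62727472), its relative, had 36.1, 50.2 and 36.9 CPM with the control hairpin, 23.4, 24 and 27 with shEZH2#1, and 35.7, 26.1 and 19.7 with shEZH2#3. All 6 hairpin libraries lay below the controls, although shEZH2#3 replicate 1 did so barely. The changes were -0.73 ± 0.19 (adjusted p = 0.0123) and -0.60 ± 0.19 (adjusted p = 0.0172). The first call was lost without shluc replicate 2 or shEZH2#1 replicate 1 or 2 (adjusted p = 0.053 to 0.0772), and the second without shluc replicate 2 or shEZH2#3 replicate 3 (adjusted p = 0.101 to 0.106); shluc replicate 2 was the highest control library. The read-through gene HNRNPUL2-BSCL2 shares 44.1% of the exonic bases of HNRNPUL2, so counts of the 2 are uncertain. Of the exonic bases of the read-through itself, 59.8% overlap HNRNPUL2 and 40.2% overlap BSCL2. HNRNPUL2-BSCL2 had 48.3, 54.6 and 47.5 CPM with the control hairpin, 41, 51.1 and 41.6 with shEZH2#1, and 54.1, 46.8 and 38.4 with shEZH2#3 and passed with neither hairpin.

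GC content separated the libraries and most members were poor in it. The median GC content of the longest protein-coding transcript was 42.2% in the tested members (35.3 to 57%), against 50.3% over all genes tested. For HNRNPUL2-BSCL2, at 57%, it was that of the only annotated transcript, a target of nonsense-mediated decay. Across all tested genes in a library, the rank correlation between GC content and a gene's deviation from its mean over libraries was -0.39, -0.69 and -0.52 for the control libraries, -0.25, 0.04 and 0.25 for shEZH2#1, and 0.37, 0.64 and 0.51 for shEZH2#3. These are correlations across genes, which are not independent replicates. The trend therefore moved with the groups, and whether it arose in the cells or in library preparation was not tested. Of genes below 40% GC, 38.8% were called lower with shEZH2#3, and 9 of the 10 members of that class were. The size of the change was alike, with a median of -0.60 over the class and -0.58 in its members. Of genes at 50% GC or above, 4.22% were called lower and 45% higher, and 3 of 9 such members were lower and 0 higher.

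**Figure D3:**
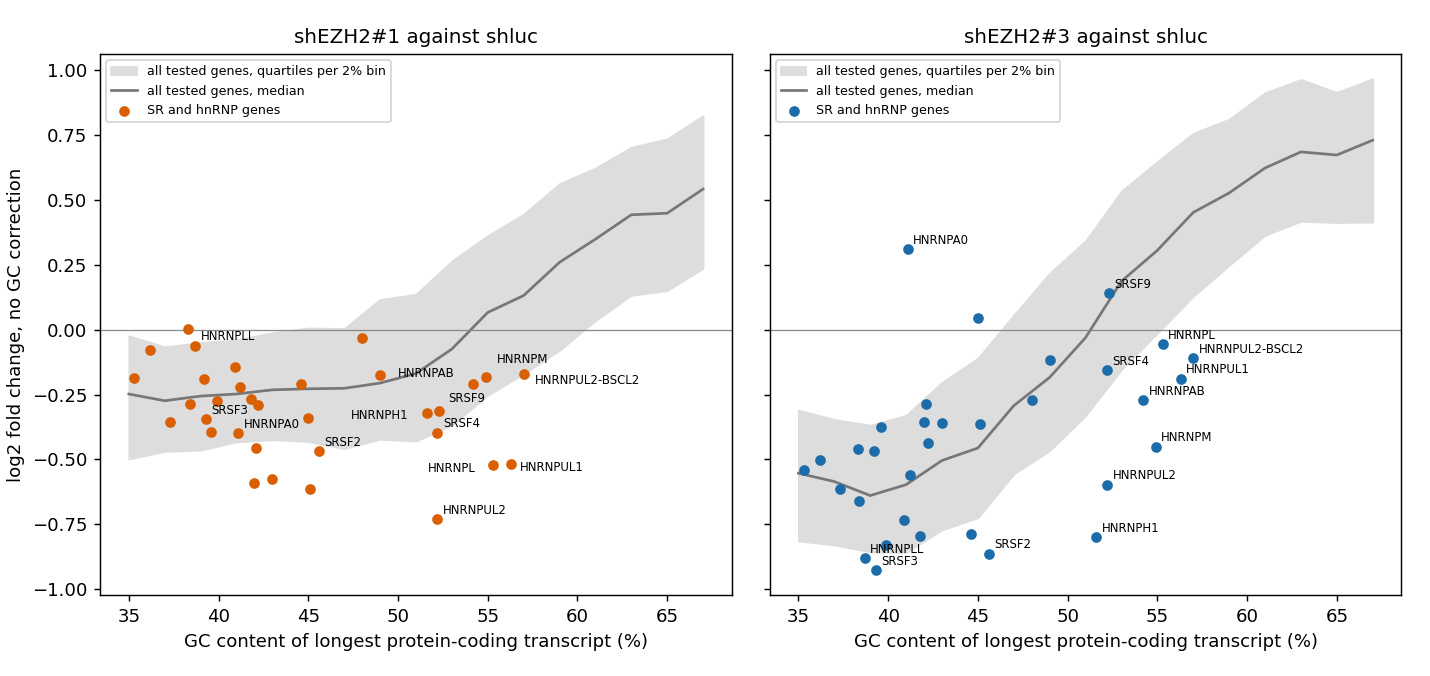
Uncorrected log2 fold change against GC content for shEZH2#1 (left) and shEZH2#3 (right); points are the 33 members, and the grey line and band are the median and quartiles of all tested genes in bins of 2% GC. With shEZH2#3 the members below 40% GC follow the grey band, whereas the 9 members at 50% GC or above have a median of -0.19 where all genes of 50 to 58% have 0.23.

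The members rich in GC content lay lower than most genes of like composition with both hairpins; this difference was described and not tested. These 9 were HNRNPAB, HNRNPH1, HNRNPL, HNRNPM, HNRNPUL1, HNRNPUL2, HNRNPUL2-BSCL2, SRSF4 and SRSF9. HNRNPUL2 and HNRNPUL2-BSCL2 share exons, so they are not separate observations. Their GC content was 51.6 to 57%, so they were set beside the 3404 tested genes of 50 to 58% GC, a range chosen after the values were seen. Before correction their median was -0.32 with shEZH2#1, where the range as a whole had -0.02, and -0.19 with shEZH2#3, against 0.23. All 9 lay below the median of that range with each hairpin. With GC content and length corrected in each library, 6 of the 9 were called lower with shEZH2#1 and 7 with shEZH2#3, where 15.5 and 16.7% of the genes in that range were called lower. The medians of the members were then -0.37 and -0.56, and those of the range -0.06 and -0.02. Of the 10 members below 40% GC, 0 were called with either hairpin after correction, and few genes of that class were: 1.53% lower and 1.53% higher with shEZH2#1, and 3.71% and 4.89% with shEZH2#3.

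Over all 33 members the correction left 6 lower and 0 higher with shEZH2#1 (10.2% of all genes lower) and 9 lower and 1 higher with shEZH2#3 (12.1% lower, 12.3% higher). The medians were then -0.08 and -0.08. For the mean of both hairpins 10 members were lower and 1 higher (10.1% and 8.56% of all genes). With shEZH2#1, the calls of HNRNPL, HNRNPUL1 and HNRNPUL2 were kept, those of HNRNPA1, HNRNPD and SRSF2 were lost (adjusted p = 0.0601, 0.117 and 0.133), and those of HNRNPAB, SRSF4 and SRSF9 were gained. With shEZH2#3, HNRNPDL, HNRNPH1, HNRNPM, HNRNPUL2 and SRSF2 were kept, and HNRNPA0, HNRNPAB, HNRNPL, HNRNPUL1 and HNRNPUL2-BSCL2 were gained. The 13 calls lost with shEZH2#3 were HNRNPA2B1, HNRNPA3, HNRNPC, HNRNPH3, HNRNPK, HNRNPLL, HNRNPR, HNRNPU, SRSF1, SRSF3, SRSF6, SRSF7 and SRSF10. Corrected values for these ranged from -0.33 ± 0.17 for SRSF3 to 0.22 ± 0.14 for SRSF6.

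**Figure D4:**
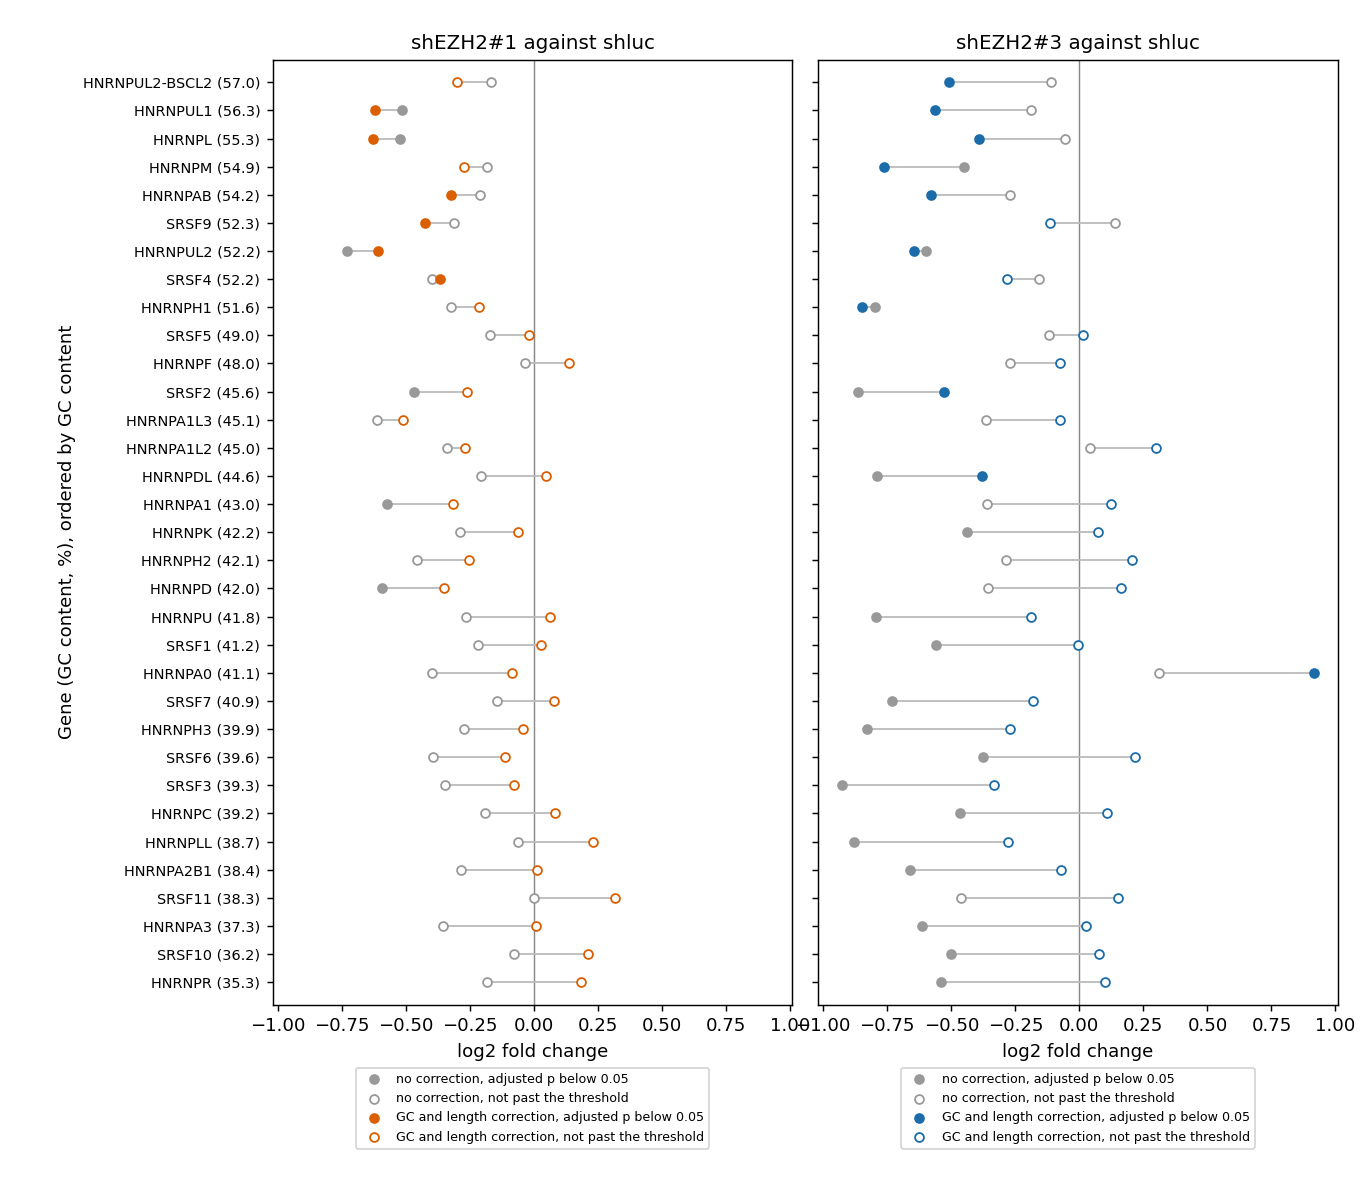
Log2 fold change of each member before (grey) and after (coloured) the correction for GC content and length, for both hairpins, with genes ordered by GC content (given in % beside each symbol). Filled points passed an adjusted p of 0.05. The correction moved low-GC genes such as HNRNPR (-0.54 to 0.10 with shEZH2#3) up and high-GC genes such as HNRNPUL1 (-0.19 to -0.56) down, and left HNRNPUL2 and HNRNPH1 nearly where they were.

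A set of 4 genes was lower with both hairpins after correction, where 3.29% of all genes were. HNRNPUL1 had -0.62 ± 0.11 (adjusted p = 0.00171) and -0.56 ± 0.11 (adjusted p = 0.00209), each held in 9 of 9 corrected fits that left out a library. HNRNPL had -0.63 ± 0.10 (adjusted p = 0.000898) and -0.39 ± 0.10 (adjusted p = 0.0117), held in 9 and 8 of 9, the second lost without shluc replicate 2 (adjusted p = 0.0568). HNRNPAB had -0.32 ± 0.09 (adjusted p = 0.0249) and -0.58 ± 0.09 (adjusted p = 0.000591), held in 4 and 9 of 9, the first lost without shluc replicate 1 or 2 or shEZH2#1 replicate 1, 2 or 3 (adjusted p = 0.0517 to 0.101). HNRNPUL2 had -0.61 ± 0.19 (adjusted p = 0.0394) and -0.64 ± 0.19 (adjusted p = 0.0242), held in 3 and 6 of 9. The first was lost without shluc replicate 2 or 3 or shEZH2#1 replicate 1, 2 or 3 or shEZH2#3 replicate 2 (adjusted p = 0.0505 to 0.162) and the second without shluc replicate 2 or shEZH2#3 replicate 2 or 3 (adjusted p = 0.0789 to 0.0985). With shEZH2#3, SRSF2 had -0.53 ± 0.11 (adjusted p = 0.00422), HNRNPH1 -0.85 ± 0.11 (adjusted p = 0.000135) and HNRNPM -0.76 ± 0.11 (adjusted p = 0.000271), all held in 9 of 9. SRSF2 and HNRNPH1 were thus the members called lower with shEZH2#3 in both kinds of fit and in every fit that left out a library. The corrected calls of HNRNPDL and HNRNPUL2-BSCL2 with shEZH2#3 were lost without shEZH2#3 replicate 2 or 3 (adjusted p = 0.0557 to 0.0591) and without shluc replicate 2 or shEZH2#3 replicate 2 or 3 (adjusted p = 0.0666 to 0.0851), and that of SRSF4 with shEZH2#1 without shluc replicate 1 or 2 or shEZH2#1 replicate 2 or 3 (adjusted p = 0.0544 to 0.108). HNRNPA0 became the single member called higher, at 0.92 ± 0.14 (adjusted p = 0.000488), held in 9 of 9, while it had -0.08 ± 0.14 (adjusted p = 0.749) with shEZH2#1.

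The hairpins differed from each other in 10 members when tested directly, where 25.0% of all genes differed (9.46% higher and 15.5% lower with shEZH2#1). HNRNPDL, HNRNPH1, HNRNPH3, HNRNPLL, HNRNPU, SRSF3 and SRSF7 were higher with shEZH2#1 than with shEZH2#3, and HNRNPA0, HNRNPL and SRSF9 were lower. With upper quartile scaling the split of all genes turned round, from 1254 higher and 2057 lower to 2207 higher and 1404 lower. The median over the whole table was then 0.18 instead of 0.01, and 15 members were higher and 1 lower. The calls of HNRNPL and SRSF9 were lost under that scaling (adjusted p = 0.079 and 0.0894) and with a replicate block (adjusted p = 0.0578 and 0.0532). The largest difference was that of HNRNPLL, 0.82 ± 0.18 (adjusted p = 0.00284), followed by HNRNPA0 at -0.71 ± 0.15 (adjusted p = 0.00149). The correction for GC content and length kept HNRNPA0, HNRNPDL, HNRNPH1, HNRNPLL and SRSF9 and lost the other 5. It added HNRNPA1, HNRNPA1L2, HNRNPD and HNRNPH2, lower with shEZH2#1, and HNRNPM, higher with it. HNRNPA0 then differed with adjusted p = 0.000156, and HNRNPH1 by 0.63 ± 0.11 (adjusted p = 0.000663). HNRNPA0 and HNRNPDL were called in both kinds of fit with any library left out. Corrected calls were lost for HNRNPLL without shEZH2#1 replicate 1, 2 or 3 or shEZH2#3 replicate 1 or 2 (adjusted p = 0.0601 to 0.119), and for SRSF9 without shluc replicate 1 or shEZH2#1 replicate 1, 2 or 3 or shEZH2#3 replicate 2 or 3 (adjusted p = 0.0544 to 0.143). Of the added ones, HNRNPA1 was lost without shEZH2#1 replicate 1 (adjusted p = 0.0504), HNRNPD without shEZH2#1 replicate 1 or shEZH2#3 replicate 1 (adjusted p = 0.0679 to 0.0995), HNRNPA1L2 without shEZH2#1 replicate 1, 2 or 3 or shEZH2#3 replicate 1 (adjusted p = 0.0599 to 0.0813) and HNRNPH2 without shEZH2#1 replicate 1 or 2 or shEZH2#3 replicate 1 or 3 (adjusted p = 0.0577 to 0.11).

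Other splicing genes changed with shEZH2#3 in groups of unlike size, given from lists chosen with earlier results of these data known. Of 9 SR protein kinases and import factors, 7 fell and 1 rose with shEZH2#3 and 0 passed with shEZH2#1. The riser was CLK3, a kinase of SR proteins, with 31.6 CPM on average in shluc and 43.3 in shEZH2#3 (log2 fold change 0.45 ± 0.15, adjusted p = 0.0187); after correction 2 fell and 1 rose. Of 17 SR-like proteins with arginine-serine regions, 10 fell and 0 rose with shEZH2#3, and 2 fell with shEZH2#1. These 2 were LUC7L2, a U1 snRNP partner (-0.74 ± 0.17 with shEZH2#1 and -1.31 ± 0.17 with shEZH2#3, adjusted p = 0.00503 and 2.08e-05), and SON, a nuclear speckle scaffold (-0.60 ± 0.17 and -1.09 ± 0.17, adjusted p = 0.0199 and 0.000109). After correction LUC7L2 passed with both hairpins and SON with shEZH2#3.

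Of 33 hnRNP-type and other RNA-binding regulators under other symbols, shEZH2#3 lowered 16 and raised 3, and shEZH2#1 lowered 9 and raised 1. RBMX, the X-linked hnRNP G, fell with both (-0.56 ± 0.14 and -0.86 ± 0.14, adjusted p = 0.011 and 0.000176) and did so after correction as well. RALY, a relative of HNRNPC, was higher with both, from 334 ± 67.5 CPM in shluc (SD, n = 3) to 565 ± 5.88 and 473 ± 26.5, changes of 0.76 ± 0.16 and 0.50 ± 0.16 (adjusted p = 0.00317 and 0.0167). The second was lost after correction (adjusted p = 0.105). MBNL3 fell with both before correction (-0.93 ± 0.25 and -0.75 ± 0.25, adjusted p = 0.0135 and 0.0194). After it MBNL3 passed with shEZH2#1 alone (adjusted p = 0.0362, and 0.706 with shEZH2#3). Of 43 core spliceosome genes, shEZH2#3 lowered 12 and raised 4, with a median of 0.04. With shEZH2#1, 8 were lower and 1 was higher, with a median of -0.24. After correction 11 were lower and 3 higher with shEZH2#3, and 14 lower and 1 higher with shEZH2#1. The corrected medians were -0.16 and -0.22, where the SR and hnRNP genes had -0.08 with each hairpin. PRPF4 of the U4/U6 particle fell with both hairpins before and after correction, by 0.65 and 0.70 on the log2 scale before it. SNRPA1 (-0.46 ± 0.14 and -0.45 ± 0.14) and PLRG1 (-0.65 ± 0.20 and -0.83 ± 0.20) also fell with both before correction. After it SNRPA1 passed with shEZH2#1 alone (adjusted p = 0.0406, and 0.106 with shEZH2#3). PLRG1 then passed with neither (adjusted p = 0.182 and 0.357). Of 10 nonsense-mediated decay genes, 3 fell with shEZH2#3 and 1 with shEZH2#1. The latter was SMG8, a regulator of the SMG1 kinase (-0.77 ± 0.18 and -0.91 ± 0.18, adjusted p = 0.00547 and 0.000581). The background shares are those given above for each hairpin, and no test of a list was made.

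The annotation shows a feature that the rule did not use: 24 of the 33 tested members (72.7%) had a transcript annotated as a target of nonsense-mediated decay in GENCODE 29, against 43.7% of 11793 tested protein-coding genes. The counts are per gene, so productive and decayed isoforms cannot be told apart in them, and splicing itself was not measured. Genes with an opposite-strand neighbour over their exons, besides SRSF1, SRSF2 and SRSF9, included HNRNPU, of which COX20 overlaps 15.6% of exonic bases, and HNRNPAB, of which PHYKPL overlaps 9.1%. HNRNPH2 shares 16.3% with the read-through RPL36A-HNRNPH2. For the members with annotated pseudogenes, these took at most 1.68% of the counts of parent and pseudogenes together, in HNRNPA3.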

How the data were processed

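Polyadenylated RNA of 9 libraries was sequenced, per the labels' protocols, from dUTP-marked stranded libraries. The submitters' processing notes name fastp, HISAT2, StringTie and the build GRCh38 (hg38); how reads were counted, on which strand and with which rule for reads mapped to several places, is not given in the sources used here. Deposited were the authors' estimated counts per Ensembl gene without normalization (14958011 to 21152006 per library; 1 count was 0.0473 to 0.0669 CPM). The counts of the single libraries equalled those of the series table.

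Symbols came from a naming table (51996 genes) or GENCODE 29 (342); 5567 genes had none. Counts were rounded and fitted with edgeR 4.0.16 in R 4.3.3: TMM scaling, filterByExpr on the 3 groups (13252 genes kept), a quasi-likelihood fit of all 9 libraries with a mean per group, common dispersion 0.0315. Calls were made at 0.05 after Benjamini-Hochberg adjustment over all genes tested, without a fold limit. All adjusted p-values are from this test; log2 fold changes carry approximate standard errors, and SDs are over 3 libraries. GC content and length of the longest protein-coding GENCODE 29 transcript were corrected by a smooth per library (span 0.3) entered as an offset. Where a gene had no such transcript, its longest transcript of any kind was used. Alternatives were DESeq2 1.42.0, scaling by RLE or upper quartile, 2 other filters, only the groups compared, a replicate block, removal of 2 abundant unnamed and all mitochondrial genes, and each library left out. Leaving out libraries under the GC correction, leaving out 2 libraries together, and correcting GC or length alone were chosen after seeing the data. The fits were tested on simulated data.

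Per-library values are given for members called with both hairpins or between them, for the 3 highest per length, and where the correction changed a call. The members and lists were chosen with earlier results of these data known.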

Additional observations from a re-analysis of the deposited data

Results flagged for a closer look

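The results here are differences between the hairpins, tested as shEZH2#1 against shEZH2#3 in edgeR's quasi-likelihood test. They were called in 10 of 33 members, where 25.0% of all genes tested were called (9.46% higher and 15.5% lower with shEZH2#1). In either direction the share of members called was thus little above that of all genes. Only those of HNRNPA0, HNRNPDL, HNRNPH1, HNRNPLL and SRSF9 were kept after the correction for GC content and length. With that correction 10 members were called, where 27.9% of all genes were. Higher with shEZH2#1 were HNRNPLL (0.82 ± 0.18, adjusted p = 0.00284), SRSF7 (0.59 ± 0.15, adjusted p = 0.0068), HNRNPDL (0.58 ± 0.14, adjusted p = 0.00638), SRSF3 (0.58 ± 0.18, adjusted p = 0.0232), HNRNPH3 (0.56 ± 0.17, adjusted p = 0.0209), HNRNPU (0.53 ± 0.15, adjusted p = 0.0151) and HNRNPH1 (0.48 ± 0.14, adjusted p = 0.0214). Lower with it were HNRNPA0 (-0.71 ± 0.15, adjusted p = 0.00149), HNRNPL (-0.47 ± 0.15, adjusted p = 0.0256) and SRSF9 (-0.45 ± 0.14, adjusted p = 0.0212). Values are log2 fold changes with standard errors. EZH2 itself had a log2 fold change of 0.02 ± 0.19 between the hairpins (adjusted p = 0.943). The GC trend of the libraries also differed between the hairpins, and its part in these differences was not tested beyond the correction given above. The calls of HNRNPA0, HNRNPDL, HNRNPLL and SRSF7 held in 9 of 9 fits that left out a library. That of HNRNPU was lost without shEZH2#1 replicate 2 or shEZH2#3 replicate 3 (adjusted p = 0.0579 to 0.0767), that of SRSF3 without shEZH2#1 replicate 1 or shEZH2#3 replicate 1 or 2 (adjusted p = 0.0501 to 0.151), that of HNRNPH1 without shEZH2#1 replicate 1 or 2 or shEZH2#3 replicate 2 or 3 (adjusted p = 0.0608 to 0.0893), that of HNRNPH3 without shEZH2#1 replicate 1 or 2 or shEZH2#3 replicate 2 or 3 (adjusted p = 0.0701 to 0.116), that of HNRNPL without shEZH2#1 replicate 1, 2 or 3 or shEZH2#3 replicate 2 or 3 (adjusted p = 0.0709 to 0.102), and that of SRSF9 without shEZH2#1 replicate 1, 2 or 3 or shEZH2#3 replicate 1 or 3 (adjusted p = 0.0513 to 0.0923).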

How the results depend on the processing

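With shEZH2#1 the 6 members called became 13 with a filter of at least 5 CPM in 3 libraries, 10 with a length correction alone, and 1 to 8 with single libraries left out (3 to 9 with the GC and length correction). Calls over all genes moved too. The main fit had 1045 lower and 1478 higher of 13252, the 5 CPM filter 1508 and 1354 of 8679, and the length correction 1130 and 1557 of 13252. Without shEZH2#1 replicate 3, the fit with 1 member called, they were 391 and 768 of 13568. With shEZH2#3 the 18 called became 10 with the correction for GC content and length, with GC alone, and with the replicate block and that correction, and 15 to 19 with a library left out (7 to 11 corrected). The 5 CPM filter gave 23 and upper quartile scaling 25. Over all genes the main fit had 2624 lower and 3237 higher of 13252. The GC and length correction had 1599 and 1630 of 13252, and the 5 CPM filter 2755 and 2394 of 8679. Between the hairpins, 10 became 16 with upper quartile scaling and 5 to 13 with a library left out (5 to 12 corrected). Over all genes 3311 were called in the main fit and 3611 with that scaling. Without shEZH2#1 replicate 1 or 2, where 5 members were called, they were 1956 and 2246. For the mean of both hairpins, 19 became 11 with GC and length correction, 9 with GC alone, 9 with the replicate block and that correction, and 11 to 19 with a library left out (6 to 10 corrected). It was 24 with the 5 CPM filter and with upper quartile scaling. Calls over all genes went from 4804 in the main fit to 2472, 1962 and 2265 with these 3 corrections. They were 4766 of 8679 with that filter, 5267 of 13252 with that scaling, and 2649 without shluc replicate 2. Without shluc replicate 2 and shEZH2#3 replicate 1 together the 4 counts of members called were 9, 16, 15 and 15.

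In shEZH2#3, 6 called falls turned sign under GC and length correction, under the same with a replicate block, or under GC alone: HNRNPA3 (0.025 and 0.0292 in the first 2), HNRNPC (0.108, 0.124 and 0.0755), HNRNPK (0.0713, 0.0703 and 0.0503), HNRNPR (0.102, 0.103 and 0.0203), SRSF10 (0.077, 0.0796 and 0.0498) and SRSF6 (0.219, 0.217 and 0.187). HNRNPL with shEZH2#3, not called uncorrected, ranged from -0.135 to 0.0165 with a library left out and had 0.0334 without the 2 libraries just named, and HNRNPUL2-BSCL2 ranged from -0.234 to 0.00461.

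Corrected, the 9 kinases and import factors had 1 lower and 1 higher with shEZH2#1, and 2 lower and 1 higher with shEZH2#3. The 10 decay genes had 2 and 5 lower and 0 higher. The 43 core spliceosome genes had 15 calls with shEZH2#1 (14 lower and 1 higher). The 33 hnRNP-type regulators had 12 calls with shEZH2#3 (9 lower and 3 higher). Of all genes, 10.2% were then lower and 8.04% higher with shEZH2#1, and 12.1% and 12.3% with shEZH2#3. Per length, HNRNPAB, HNRNPA1 and HNRNPL moved to 400, 1380 and 357 TPM with median lengths. EZH2 kept its call with both hairpins under every alternative run. Deviations from the group means correlated at -0.12 to 0.08 between same-numbered replicates and at -0.16 to 0.16 between other pairs of different groups. With 3 libraries a group and a GC trend that differs by library, these values cannot tell whether a number marks a shared batch. The replicate block gave 5, 17, 8 and 15 calls. Over 63 single-gene results, corrected ones counted apart, and 1113 alternatives, 895 kept direction and side of the threshold, 162 lost a call, 35 gained one and 21 turned sign. The cause was not tested.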
